A study of Mus musculus with 12 samples.

Results

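The 86 cytosolic ribosomal protein genes among the 22548 genes of the expression table were examined in hematopoietic stem cells (HSCs) from young mice and from aged mice, the latter with or without treatment of the cells with CASIN. A gene was included when its symbol was Rpl or Rps followed by a number, or Rplp0, Rplp1, Rplp2 or Rpsa. Pseudogene symbols (6), the ribosomal S6 kinase genes (10) and Rps19bp1 were left out. The 86 genes comprised 43 large subunit proteins, 31 small subunit proteins, the 3 P-stalk proteins and 9 paralogues, which are related gene copies. The paralogues were Rpl3l, Rpl7l1, Rpl10l, Rpl22l1, Rpl36al, Rpl39l, Rps4l, Rps27l and Rps27rt. All encode a related protein except Rps4l, which has no protein-coding model in the annotation used.

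The cytosolic ribosome translates every messenger RNA of the cell from a small subunit that decodes the message and a large subunit that joins the amino acids. The P-stalk of the large subunit recruits the elongation factors. Most ribosomal proteins are made in equal amounts, as each ribosome holds a single copy of nearly every one, and their messenger RNAs carry a run of pyrimidines at the start that ties their translation to mTOR signalling. In HSCs the rate of protein synthesis is known to be low and tightly held, and in people the loss of 1 working copy of certain ribosomal protein genes causes Diamond-Blackfan anaemia, a failure of red cell formation.

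All 12 libraries were made from long-term HSCs sorted from C57BL/6 mice, at least 200 cells per library from at least 3 individuals per arm, and the labels name no genetic change in any group. The authors' methods describe a larger pool of HSCs for the libraries than this minimum. There were 4 libraries of young HSCs (replicates 2 to 5, mice of 2 to 4 months), 5 of aged HSCs (replicates 0 and 2 to 5, mice of 20 to 26 months) and 3 of aged CASIN-treated HSCs (replicates 1 to 3, mice of the same age as the aged group). Per the labels, cells of every group spent 16 h in HBSS with FBS at 37 °C, under low oxygen (3% O2, with CO2 at 5%). The treated group received 5 µM CASIN, an inhibitor of the RhoGTPase Cdc42, and the others none. The young mice and the aged mice came in part from different suppliers, so age and source of the animals cannot be told apart.

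The values are log2 expression values, quantile normalized, which gives all libraries nearly the same distribution. They are not counts, the depth behind them is unknown, and counting error could not be computed. In each library 2535 to 16470 genes shared the lowest value, and a gene above it was counted as detected. Young libraries detected 27.0% to 42.9% of all genes, aged libraries 50.8% to 78.1%, and CASIN replicates 1, 2 and 3 detected 30.4%, 88.8% and 32.3%. CASIN replicate 2 thus stood apart from the other treated libraries. Of the markers of the sort, Kit was detected in 4 and Ly6a, which encodes Sca-1, in 4 of the 12 libraries, whereas the HSC transcription factor Hlf was detected in 11. Of the markers that the sort gates out, Cd34 was detected in 6 and Flt3 (Flk2) in 7 of the 12 libraries. Their highest values were 5.23 for Cd34 in aged replicate 5 and 6.08 for Flt3 in young replicate 2. All 3 beta-globin genes in the table, as well as Cd48 and the T cell gene Cd5, were at the lowest value in all 12, but Cd3d was in the highest 25% of values in all 12. Of 3 monocyte markers Itgam was likewise in the highest 25% in all 12, Csf1r was detected in 9 and Cd68 in 3. Of 7 neutrophil markers 0 to 1 were detected in each young, 3 to 5 in each aged and 0 to 6 in each CASIN-treated library, with a summed log2 value of 3.38 to 12.8, of 4.84 to 18.7 and of 4.03 to 11.5. Of the 5 T cell markers examined, 2 to 3 were detected in each young library, 3 to 4 in each aged and 2 to 4 in each CASIN-treated library. The summed log2 value of these markers was 15.3 to 19.6 in young, 18.2 to 19.3 in aged and 13.5 to 25.5 in CASIN-treated libraries. The part of other cells in the results was not tested, and in bulk samples fewer cells of a type and less RNA per cell cannot be told apart.

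Ribosomal protein genes were listed at the lowest value in many libraries, although every cell uses them. Young replicates 2 to 5 detected 39, 58, 50 and 36 of the 86 genes. Aged replicates 0, 2, 3, 4 and 5 detected 67, 72, 50, 53 and 55, and CASIN replicates 1, 2 and 3 detected 37, 80 and 38. The library that detected the most of all genes, CASIN replicate 2, also detected the most ribosomal protein genes, and the ranges of young (41.9% to 67.4%) and aged HSCs (58.1% to 83.7%) overlapped. In every library the share was above that of all genes. Of 1032 values, 86 genes in 12 libraries, 397 (38.5%) were at the lowest value of their library. Per group this was 46.8% of the young, 30.9% of the aged and 39.9% of the CASIN-treated values.

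**Figure D1:**
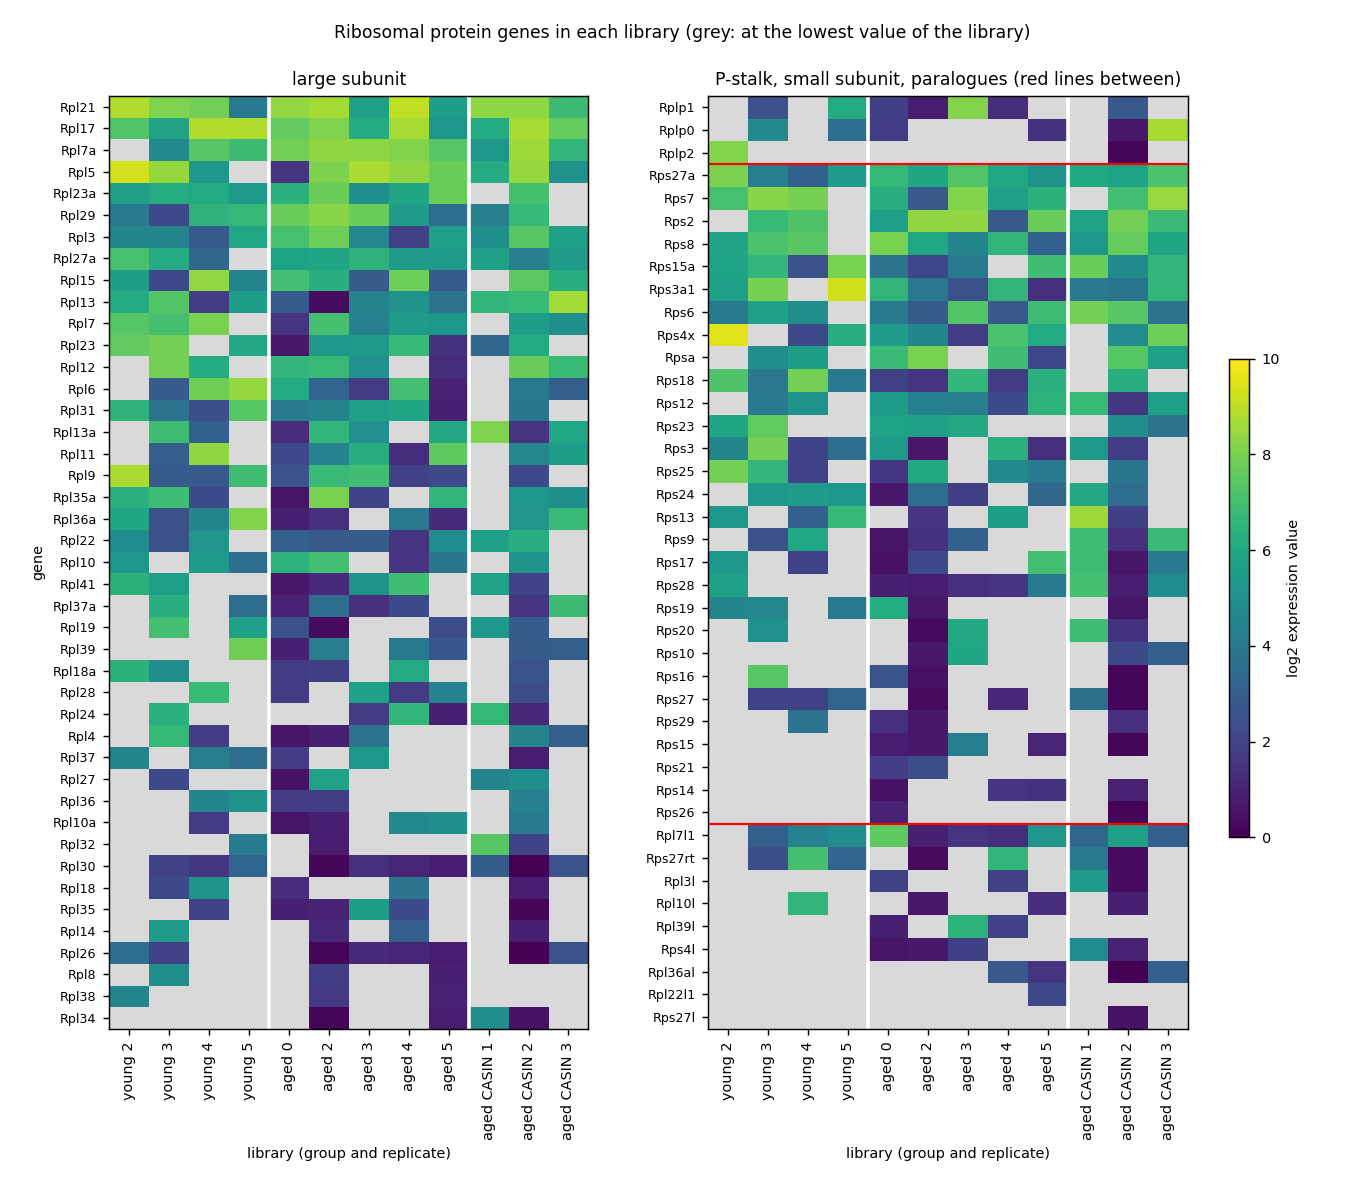
Log2 expression value (colour scale) of 84 of the 86 ribosomal protein genes (rows, ordered within each class by their mean value for display only) in the 12 libraries (columns), with grey where a gene was at the lowest value of its library. Few rows are free of grey, and the column of CASIN replicate 2 holds the least grey.

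The share of ribosomal protein genes in the highest 25% of values was above that of all genes in each of the 12 libraries. Between 26.7% and 44.2% of the 86 genes in young, 27.9% and 39.5% in aged, and 31.4% and 38.4% in CASIN-treated libraries were in the highest 25% of values. Among all genes this share was 23.1% to 24.9% in every library. The groups overlapped in this share. Of the mitochondrial ribosomal protein genes (77 in the table), which serve the separate ribosome of mitochondria, 9.09% to 18.2% were in the highest 25%, whereas initiation factors had 20.5% to 41.0%, elongation genes 25% to 58.3% and translation partners 33.3% to 77.8%. Among detected genes alone, the median rank of the ribosomal protein genes, as a percentile of all genes of the library, was 62.5 to 85.3, compared to 55.5 to 86.5 for all detected genes, and it was below that of all detected genes in 5 libraries and above it in 7.

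Values above the lowest one moved in steps. In each library 458 to 1452 genes shared exactly the same next value, which is called the first step here, and in each library at least 94.9% of the detected genes shared their value with another gene. The genes on the first step of young replicate 2 had coding lengths of 598 to 3557 bases (the 10th and 90th percentile), so the value of a gene does not look divided by its length. The shares of genes among the highest values and the median ranks do set genes of different length against each other. The part of gene length in these shares and ranks was not tested. Beyond them, levels of different genes were not compared. Whether a step stands for a read is not given in the sources used here. The first step lay at 1.84 to 4.11 in young, at 0.22 to 1.36 in aged and at 0.037 to 3.34 in CASIN-treated libraries, so the same log2 value stands at different places above the lowest one in different libraries. Of the 1032 values of ribosomal protein genes, 519 (50.3%) lay above the third step, namely 39.5% of the young, 57.7% of the aged and 52.3% of the CASIN-treated values. A total of 23 genes were above the third step in at least 9 libraries, and 2 were in all 12, Rpl17 and Rps27a.

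**Figure D2:**
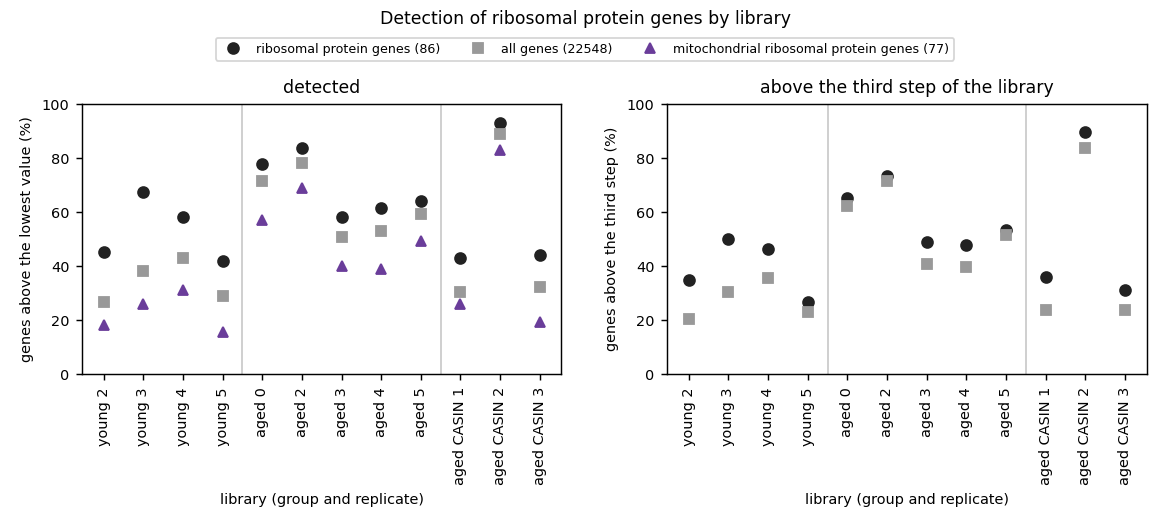
Percentage of genes above the lowest value (left) and above the third step (right) in each library, for ribosomal protein genes (circles), all genes (squares) and, on the left, mitochondrial ribosomal protein genes (triangles). Circles lie above squares in all 12 libraries of the left panel, by the least in CASIN replicate 2 (93.0% against 88.8%), and triangles lie below squares.

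In all 12 libraries 5 of the 86 genes (5.81%) were detected, compared to 9.50% of all genes and 10.3% of initiation factors. These were the large subunit genes Rpl3, Rpl13, Rpl17 and Rpl21 and the small subunit gene Rps27a, whose product is made as a fusion with ubiquitin. None was missing from all of them. A total of 30 genes were detected in 9 to 11 libraries, 32 in 5 to 8 and 19 in 1 to 4. The median was 8 of 12 libraries, compared to 6 for all genes, 7 for translation initiation factors (39 genes) and 4 for mitochondrial ribosomal protein genes.

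Rpl17, a protein of the peptide exit tunnel, was in the highest 25% of values in all 12 libraries, as 1 of 86 ribosomal protein genes (1.16%), compared to 4.34% of all genes. Its values were 7.27, 5.86, 8.81 and 8.79 in young replicates 2 to 5, then 7.60, 8.08, 6.15, 8.68 and 5.27 in aged replicates 0 and 2 to 5, and 6.16, 8.67 and 7.64 in CASIN replicates 1 to 3. The groups overlapped throughout, and the young minus aged difference was 0.53 (95% confidence interval -1.44 to 2.50). Rpl21 had values of 8.83, 8.06, 7.86 and 4.15 in young, 8.38, 8.65, 5.69, 9.04 and 5.61 in aged, and 8.30, 8.30 and 6.85 in CASIN-treated libraries. Rpl7a was above the third step in all aged libraries but at the lowest value in young replicate 2 (see the comparison of young and aged HSCs). Rps27a, singled out after its values were seen, ranged from 3.11 to 8.03 in young, from 5.14 to 7.30 in aged and from 5.80 to 7.16 in CASIN-treated libraries. Its 3 differences between groups lay between -0.98 and 1.13.

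Few libraries detected Rps26, which lines the messenger RNA exit channel, Rps27l and Rpl22l1. Rps26 was detected in 2 libraries, with 1.01 in aged replicate 0 and 0.17 in CASIN replicate 2. Rps27l was detected in CASIN replicate 2 alone (0.50) and Rpl22l1 in aged replicate 5 alone (2.15).

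The P-stalk proteins assemble as 1 Rplp0 with 2 dimers of Rplp1 and Rplp2, but their messages were rarely detected together. Rplp0 had values of 0.67, 4.79, 0.43 and 3.59 in young replicates 2 to 5, of 1.77, 0.018, 0.23, 0.22 and 1.46 in aged replicates 0 and 2 to 5, and of 0.63, 0.63 and 8.67 in CASIN replicates 1 to 3. It was detected in 6 libraries, 2 of each group. Rplp1 was detected in 7 libraries and reached 8.16 in aged replicate 3 and 6.16 in young replicate 5. Rplp2 was detected in 2 libraries, at 8.13 in young replicate 2 and at 0.16 in CASIN replicate 2. CASIN replicate 2 was the single library that detected all 3 genes. Among the P-stalk genes the lowest unadjusted p of the limma fit was 0.127, for Rplp2 between young and aged HSCs, where the difference was 2.28 with a wide 95% confidence interval of -0.77 to 5.34.

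Genes with many near-identical copies were detected in more libraries. A copy was counted when another annotated locus, pseudogenes included, held a transcript with at least 95% identity over at least 80% of the coding sequence. Reads from such a copy and from the gene itself may be shared or split by the authors' counting, so the values of these genes are uncertain. Rpl21 had 57 copies, Rpl7a 32, Rpl29 28 and Rps2 26. The 41 genes with fewer than 5 copies were detected in a median of 6 libraries and the 44 genes with 5 or more in a median of 10. Across 85 genes the number of copies and the number of libraries had a Spearman correlation of 0.63. These are genes of the same libraries and not independent replicates, so no p is given. Coding length had a correlation of 0.36 with the number of libraries. Within classes of coding length, genes with fewer than 5 copies were detected in a median of 5 (under 400 bases), 5.5 (400 to 600) and 6 libraries (600 or more), and genes with 5 or more copies in 9, 9.5 and 11. Rps3, with no such copy, was nonetheless detected in 10 libraries. The 30 genes that hold small nucleolar RNAs in their introns were detected in a median of 10 libraries, the other 55 in 7.

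**Figure D3:**
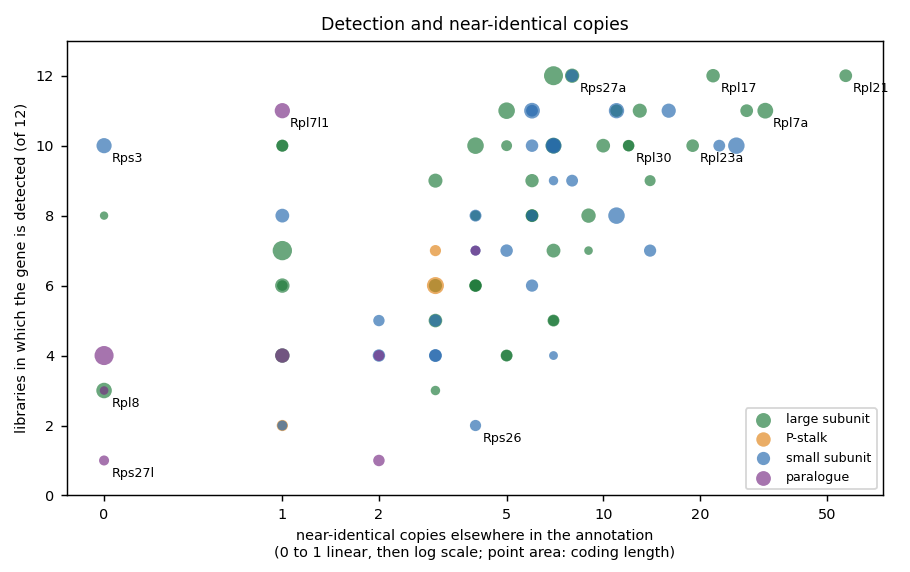
Number of libraries in which each of 83 ribosomal protein genes was detected (vertical axis) against its number of near-identical copies (horizontal axis, linear from 0 to 1 and logarithmic above), with colour for the class and point area for coding length. Genes with 20 copies or more were detected in at least 10 libraries, whereas genes without copies span 1 to 10.

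A special case was Rps27 and Rps27rt. Rps27 lies at chr3:90212522-90213651 (mm10, minus strand), with 4 exons, and Rps27rt is a single-exon gene at chr9:114982366-114982739 (minus strand). Rps27l is a further paralogue with 4 exons at chr9:66946086-66949516 (plus strand). The coding sequences below, without the stop codon, are shown because they tell which reads can be assigned to which locus, with capitals where a base differs from Rps27. Rps27rt differed from Rps27 at 0 of 252 bases and Rps27l at 60.
Rps27: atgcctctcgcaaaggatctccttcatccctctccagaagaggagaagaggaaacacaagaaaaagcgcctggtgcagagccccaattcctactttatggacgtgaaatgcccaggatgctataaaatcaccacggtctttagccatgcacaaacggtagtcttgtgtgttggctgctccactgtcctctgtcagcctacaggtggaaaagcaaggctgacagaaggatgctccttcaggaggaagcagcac
Rps27rt: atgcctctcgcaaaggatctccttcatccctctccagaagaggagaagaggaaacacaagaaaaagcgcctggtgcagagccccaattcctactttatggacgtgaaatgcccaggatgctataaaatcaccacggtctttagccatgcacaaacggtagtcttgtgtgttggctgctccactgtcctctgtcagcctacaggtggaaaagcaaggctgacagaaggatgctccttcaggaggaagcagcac
Rps27l: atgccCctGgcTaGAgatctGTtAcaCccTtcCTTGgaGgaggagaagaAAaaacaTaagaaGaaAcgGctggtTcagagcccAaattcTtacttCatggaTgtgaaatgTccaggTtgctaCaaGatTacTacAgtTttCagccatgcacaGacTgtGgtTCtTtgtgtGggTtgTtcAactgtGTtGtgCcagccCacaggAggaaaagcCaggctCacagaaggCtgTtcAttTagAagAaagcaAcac

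Rps27 and Rps27rt were detected in the same 7 libraries and both were at the lowest value in the other 5. Rps27 had values of 0.67, 2.02, 1.93 and 3.27 in young replicates 2 to 5, of 0.066, 0.24, 0.23, 1.11 and 0.16 in aged replicates 0 and 2 to 5, and of 3.71, 0.15 and 0.58 in CASIN replicates 1 to 3. Rps27rt, named after its values were seen, had 2.40, 7.04 and 3.27 in young replicates 3 to 5, 0.25 and 6.59 in aged replicates 2 and 4, and 4.10 and 0.29 in CASIN replicates 1 and 2. As the coding sequences are identical, the split of reads between these loci is uncertain. The Rps27 values of young replicates 3 and 5 and of aged replicate 4 lay below the first step of their libraries, a range that at most 37 genes of any library occupied.

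Values below the first step were seen in 23 of the 1032 cases and came from 5 genes, which were singled out after their values were seen. Rpl30 was below it in 9 libraries, Rpl26 in all 8 libraries that detected it, Rps27 in 3, Rpl34 in 2 and Rps27rt in 1. These genes had 12, 6, 4, 5 and 4 near-identical copies.

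The other paralogues were mostly detected less often than the gene they derive from. Rpl22, which binds RNA in the large subunit and is known for a role in lymphocyte development, was detected in 10 libraries and Rpl22l1 in 1. Rpl36a was detected in 10 libraries and Rpl36al, of the same coding length, in 4. Rpl3 was detected in 12 and Rpl3l, which is known from skeletal and heart muscle, in 4, with the highest value of Rpl3l, 5.48, in CASIN replicate 1. Rpl10 was detected in 8 and Rpl10l, an intronless copy known from male germ cells, in 4, with the highest value of Rpl10l, 6.60, in young replicate 4. Rps4x was detected in 10 and Rps4l, which has no protein-coding model in the annotation used, in 5. Rpl7l1, a protein of ribosome assembly with 51.2% coding identity to Rpl7, went the other way, with 11 libraries compared to 10 for Rpl7. The values of Rpl7l1 were 0.67, 3.02, 4.43 and 4.86 in young, 7.52, 0.89, 1.54, 1.30 and 5.23 in aged, and 3.34, 5.69 and 3.03 in CASIN-treated libraries.

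**Figure D4:**
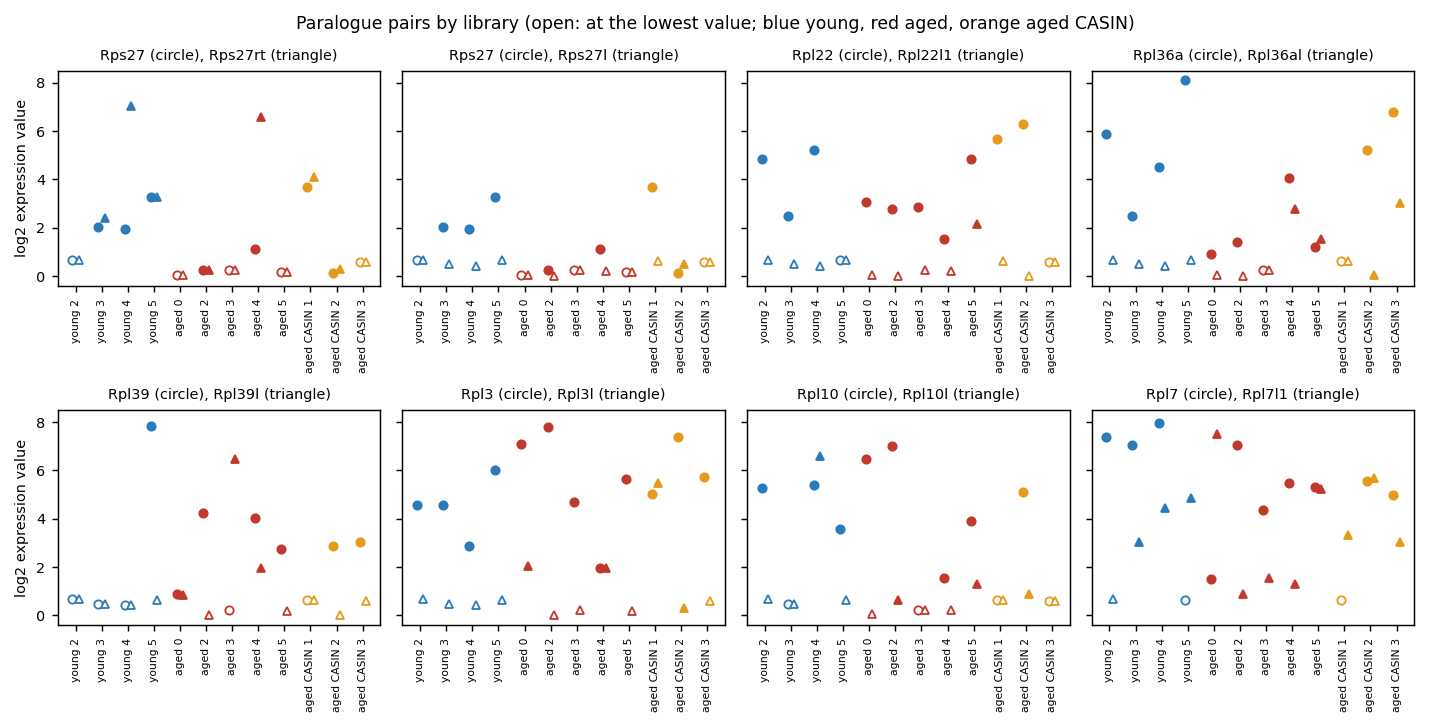
Log2 expression value (vertical axis) of 8 pairs of ribosomal protein genes (circle, the first gene; triangle, its paralogue) in the 12 libraries, with open symbols at the lowest value of the library and colour for the group. Rps27 and Rps27rt are filled in the same 7 libraries, whereas most other triangles are open.

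Rpl39, a small protein of the exit tunnel, and Rpl39l, which is known from testis, have coding sequences of 153 bases that differ at 23 positions (capitals mark the bases of Rpl39l that differ). Rpl39 lies at chrX:37082520-37085402 (minus strand) and Rpl39l at chr16:10170226-10174911 (plus strand). They are shown because reads of the 2 loci can be told apart.
Rpl39: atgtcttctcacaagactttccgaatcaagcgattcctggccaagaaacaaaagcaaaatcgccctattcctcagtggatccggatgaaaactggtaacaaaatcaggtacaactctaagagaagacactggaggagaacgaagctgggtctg
Rpl39l: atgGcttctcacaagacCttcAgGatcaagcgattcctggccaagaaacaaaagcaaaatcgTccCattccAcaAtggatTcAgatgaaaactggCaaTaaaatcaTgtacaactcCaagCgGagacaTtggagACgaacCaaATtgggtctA
Rpl39l was detected in 3 libraries, all of aged HSCs, at 0.86, 6.47 and 1.97 in replicates 0, 3 and 4. Rpl39 was at the lowest value in aged replicate 3, and had 0.90 and 4.04 in aged replicates 0 and 4. Rpl39 itself was highest in young replicate 5 (7.83), and the 3 other young libraries were at the lowest value.

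Young and aged HSCs were compared first, to ask whether ribosomal protein messages differ with age. In one limma fit of the 3 groups over all 22548 genes, 0 of the 86 genes had a Benjamini-Hochberg adjusted p under 0.05 (0.0177% of all genes had one), and the lowest adjusted p was 0.764. At an unadjusted p under 0.05 there were 3 of the 86 genes (3.49%), compared to 5.33% of all genes. The share among ribosomal protein genes was thus not above the background. In none of the 86 genes were the young and aged values free of overlap, compared to 1.96% of all genes. The median young minus aged difference was 0.32, with 52 positive and 34 negative differences. Over all genes it was -0.017, with 11157 positive and 11391 negative. These counts include genes at the lowest value in all young and aged libraries, such as Rps27l with 0.42. With a common lowest value the median was 0.17, compared to -0.17 over all genes. With all values up to the highest first step set equal, chosen after seeing the data, the median was 0.0046. By class the median of the values as deposited was 0.53 for the large subunit, 0.23 for the small subunit, 1.63 for the P-stalk and -0.047 for the paralogues. The count of 3 became 9 without young replicate 4, and 1 without aged replicate 2 or without aged replicate 3.

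Rpl36a and Rpl7a were among the 3. Rpl36a, near the site where transfer RNA leaves the large subunit, had values of 5.89, 2.50, 4.50 and 8.10 in young replicates 2 to 5 and of 0.90, 1.39, 0.23, 4.04 and 1.21 in aged replicates 0 and 2 to 5. The groups overlapped, as aged replicate 4 was above young replicate 3, and the difference was 3.69 (SE 1.41, limma unadjusted p = 0.0245, adjusted p = 0.764).

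Rpl7a, a large subunit protein, went the other way. Its aged values were 7.86, 8.33, 8.29, 8.12 and 7.39, all within 1 log2 unit. In young libraries the values were 0.67, 4.79, 7.40 and 6.84, so that young replicate 4 only just reached the range of aged HSCs. The difference was -3.07 (SE 1.22, unadjusted p = 0.0296, adjusted p = 0.764). Without young replicate 2, where Rpl7a was at the lowest value, it was -1.65. Rpl7a had 32 near-identical copies.

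Among the genes next in order of p, Rps27 (given above) had a difference of 1.61 (unadjusted p = 0.0562). Rps24, a small subunit protein, had values of 0.67, 5.33, 5.48 and 5.33 in young and of 0.67, 3.59, 1.88, 0.22 and 3.30 in aged libraries. Its difference was 2.27 (SE 1.34, unadjusted p = 0.119), and 3.45 without young replicate 2, in which it was at the lowest value.

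**Figure D5:**
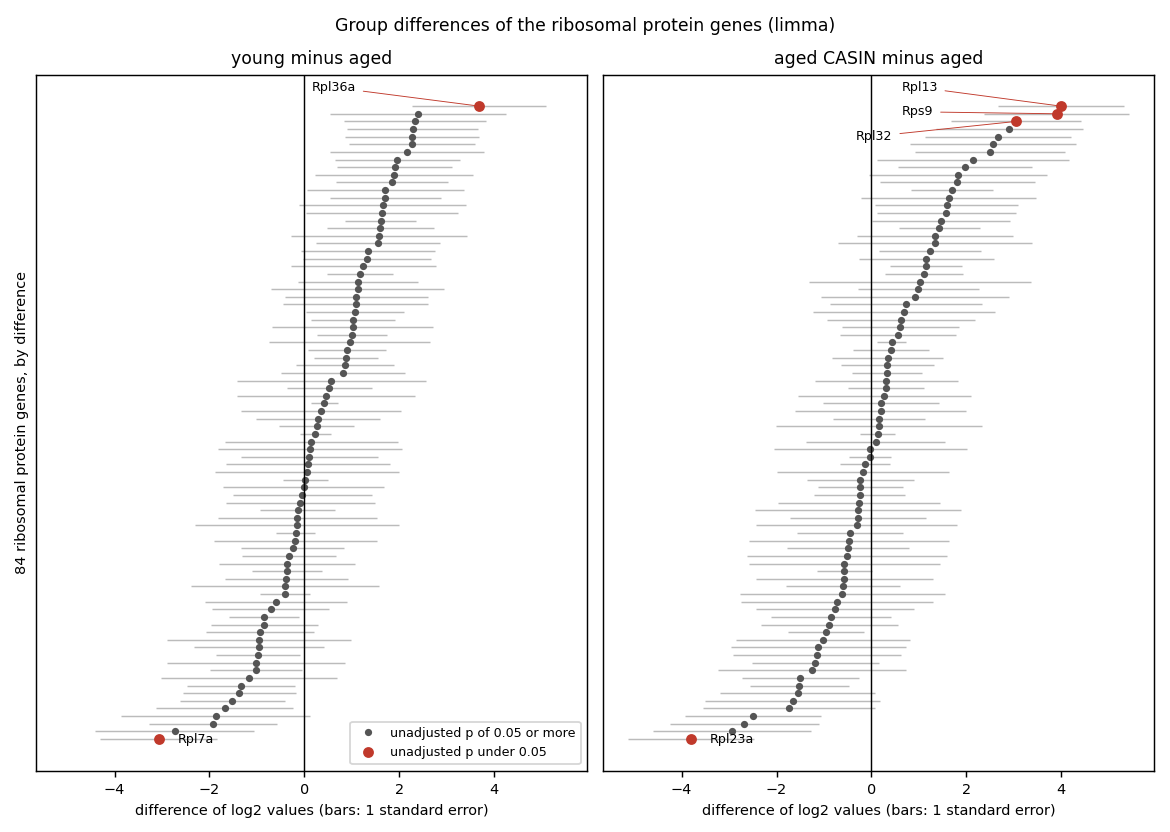
Differences of log2 values (horizontal axis, bars for 1 standard error) of 84 of the 86 ribosomal protein genes between young and aged (left) and aged CASIN-treated and aged HSCs (right), each panel ordered by the difference. Red points mark the 2 and 4 genes drawn with an unadjusted p under 0.05, and none of them had an adjusted p under 0.05.

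Aged CASIN-treated and aged HSCs were compared next, to ask whether inhibition of Cdc42 changes these messages. Again 0 of the 86 genes had an adjusted p under 0.05 (0.0222% of all genes had one), the lowest being 0.948. At an unadjusted p under 0.05 there were 4 (4.65%), compared to 4.4% of all genes. The values of 1 gene, Rpl13, did not overlap between the groups, compared to 2.11% of all genes. The median difference was 0.16 (46 positive, 40 negative), compared to -0.038 over all genes (10903 positive, 11645 negative). It was -0.24 for the large and 0.16 for the small subunit. Leaving out CASIN replicate 2 changed the count of 4 to 9 and the median to -0.045, and leaving out CASIN replicate 1 or aged replicate 4 changed the count to 2.

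Rpl13, a large subunit protein, had values of 6.62, 6.74 and 8.62 in CASIN replicates 1 to 3 and of 2.92, 0.32, 4.47, 5.10 and 3.82 in aged replicates 0 and 2 to 5. All treated libraries were above all aged ones, with a difference of 4.00 (SE 1.32, unadjusted p = 0.0119, adjusted p = 0.948). Young HSCs had 6.14, 7.33, 1.84 and 5.59, a range that overlapped both groups. Over the alternatives and with each library left out, the difference of Rpl13 between treated and aged HSCs stayed between 2.95 and 4.44.

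Rpl23a, which sits at the exit of the tunnel where nascent chains meet the signal recognition particle, was detected in all 9 young and aged libraries but in only 1 of 3 treated ones. Its values were 5.68, 6.18, 6.12 and 5.38 in young, 6.39, 7.75, 5.01, 5.87 and 7.73 in aged, and 0.63, 7.05 and 0.58 in CASIN-treated libraries. CASIN replicates 1 and 3 were at the lowest value, and CASIN replicate 2 was within the aged range. The CASIN minus aged difference was -3.80 (SE 1.33, unadjusted p = 0.0161, adjusted p = 0.948). Without CASIN replicate 2 it was -5.95, with a limma adjusted p of 0.0123, the single call among the 86 genes in that fit. Over detected values alone, where CASIN replicate 2 is the only treated library left, the difference was 0.50. CASIN replicates 1 and 3 also detected the fewest of all genes among the treated libraries, and the part of detection in this difference was not tested. Rpl23a had 19 near-identical copies.

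Rps9, a small subunit protein at the messenger RNA entry, had values of 6.89, 1.33 and 6.81 in treated and of 0.58, 1.46, 3.11, 0.22 and 0.16 in aged libraries. Its difference was 3.91 (SE 1.53, unadjusted p = 0.0272). Rpl32 had 7.41, 2.05 and 0.58 in treated libraries, was detected in 1 of 5 aged libraries (0.81 in replicate 2), and had a difference of 3.05 (SE 1.37, unadjusted p = 0.0490) that was 1.01 without CASIN replicate 1. Rpl34 had 4.94 in CASIN replicate 1 and at most 0.81 in every other library, and the difference of 1.70 (unadjusted p = 0.0777) was 0.23 without that library. Rps15a had 7.74, 4.74 and 6.59 in treated and 3.82, 2.12, 4.16, 0.22 and 6.93 in aged libraries, with a difference of 2.91 (unadjusted p = 0.0866). Rps9, Rpl32, Rpl34 and Rps15a each had their highest treated value in CASIN replicate 1. Rps9 (6.81) and Rps15a (6.59) were also high in CASIN replicate 3. All were chosen by their small p in this comparison, so no shared trait can be read from them.

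Aged CASIN-treated and young HSCs, which differ in age and treatment together, were compared with the same fit. This comparison shares its samples with the other 2. The adjusted p was under 0.05 in 0 of the 86 genes and in 0% of all genes, with 968 of all genes (4.29%) at an unadjusted p under 0.05 and 4 of the ribosomal protein genes (4.65%). All 4 were lower in treated HSCs, among them Rpl9, Rpl31 and Rpl23a, whereas over all genes 654 were higher and 314 lower. The values did not overlap in 1 gene, Rpl9, compared to 2.07% of all genes. The median difference was -0.19, compared to -0.092 over all genes. The count of 4 became 8 without CASIN replicate 2, 2 without young replicate 2, aged replicate 2 or aged replicate 5, and 1 without CASIN replicate 1, young replicate 5 or aged replicate 4.

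Rpl9, a large subunit protein near the factor binding site, had values of 8.73, 2.85, 2.78 and 6.94 in young, 2.58, 6.75, 6.93, 1.97 and 2.21 in aged, and 0.63, 2.22 and 0.58 in CASIN-treated libraries. The CASIN minus young difference was -4.18 (SE 1.74, unadjusted p = 0.0356). Rpl31 had 6.49, 3.82, 2.40 and 7.36 in young and 0.63, 3.92 and 0.58 in treated libraries, with a difference of -3.31 (SE 1.49, unadjusted p = 0.0491). For Rpl23a the difference was -3.09 (unadjusted p = 0.0493), and -5.24 without CASIN replicate 2 (adjusted p = 0.0355). Rpl37 and Rps19 had differences of -2.56 and -2.85, with unadjusted p of 0.0817 and 0.0858.

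A list of 19 of these genes is known from Diamond-Blackfan anaemia, with Rps14 added for its role in the anaemia of the 5q- syndrome. Of the 19, 5 to 12 were detected in each young library, 10 to 16 in each aged, and 7, 10 and 19 in the CASIN-treated libraries. The number at an unadjusted p under 0.05 was 0 in each of the 3 comparisons (5.33%, 4.4% and 4.29% of all genes), with a lowest adjusted p of 0.764. The median differences were 0.11 for young minus aged, 0.16 for CASIN minus aged and -0.38 for CASIN minus young values. Rps19, the gene most often mutated in the disease, had values of 4.55, 4.65, 0.43 and 4.15 in young and 6.18, 0.63, 0.23, 0.22 and 0.16 in aged libraries. It was thus detected in 3 of 4 young and 2 of 5 aged libraries, and in treated HSCs only at 0.58 in CASIN replicate 2. The young minus aged difference of Rps19 was 1.96 (95% confidence interval -0.96 to 4.88).

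Rpl5 and Rpl11 form, with 5S ribosomal RNA, the complex that binds Mdm2 when ribosome assembly fails. Rpl5 had 9.33, 8.43, 5.32 and 0.65 in young, 1.52, 8.03, 8.73, 8.35 and 7.77 in aged, and 6.15, 8.42 and 5.13 in CASIN-treated libraries. Rpl5 was thus high in most libraries and low in a single library of each control group, young replicate 5 and aged replicate 0. This was not particular to Rpl5, as Rpl7 was low in the same libraries (0.65 and 1.52). Rpl11 had 0.67, 3.02, 8.33 and 0.65 in young, 2.21, 4.43, 6.23, 1.30 and 7.50 in aged, and 0.63, 4.62 and 5.59 in treated libraries. Rps14 was never in the highest 25% of values and was detected in 4 libraries, with 1.53 in aged replicate 4 as its highest value. The differences of these 3 genes between young and aged HSCs lay between -1.17 and -0.18, each smaller than its standard error.

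Values of the ribosomal protein genes agreed less between young libraries than between aged ones. Across the 86 genes the mean Pearson correlation was 0.22 over the 6 pairs of young libraries (0.11 to 0.34), 0.47 over the 10 pairs of aged libraries (0.31 to 0.64) and 0.34 over the 3 pairs of CASIN-treated libraries. Over all genes it was 0.43, 0.53 and 0.46. These correlations are across genes of shared libraries and are given as a description. The median SD of a ribosomal protein gene was 2.35 in young, 1.87 in aged and 1.81 in CASIN-treated HSCs, above the median of all genes in each group (1.36, 1.55 and 0.99). Genes at the lowest value throughout a group have only the SD of those lowest values, as Rpl22l1 did in young HSCs (0.12). The ribosomal protein genes were detected more often than all genes, and the part of detection in these SDs was not tested.

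Other genes of translation were described with the same fit, and no gene of the following lists had an adjusted p under 0.05 in any comparison. Of 39 initiation factors, 3 were higher in young than in aged HSCs at an unadjusted p under 0.05 and 2 were higher in treated than in aged HSCs, with none lower in either case. Over all genes 5.33% (480 higher, 722 lower) and 4.4% (559 higher, 434 lower) passed in these comparisons, and the counts below stand against the same shares. Eif3j1, a loosely bound subunit of the factor eIF3, had a young minus aged difference of 2.51 (limma unadjusted p = 0.00973). Its values were 3.66, 3.58, 2.25 and 4.67 in young and 0.71, 0.75, 0.23, 1.68 and 1.80 in aged libraries. The first step lay at 1.84 to 4.11 in young and at 0.22 to 1.36 in aged libraries. The part of these steps in the difference was not tested. Eif3d, the cap-binding subunit of eIF3, had a CASIN minus aged difference of 3.87 (limma unadjusted p = 0.00294). Of 12 elongation genes, 0 and 1 passed, the latter being Eif5a with 3.02. Of 57 ribosome biogenesis genes 3 passed in each of these comparisons, among them Wdr12 with -4.22 between young and aged and Utp20 with 3.62 between treated and aged HSCs. Of 77 mitochondrial ribosomal protein genes 3 and 2 passed, led by Mrps24 with a young minus aged difference of 5.54 (adjusted p = 0.182). Of the 9 genes for partners such as Fau, whose product carries a ribosomal protein fused to a ubiquitin-like domain, none passed, and Fau was at 2.31 between treated and aged HSCs (unadjusted p = 0.0577). The medians of these 5 lists lay between -0.47 and 0.82 for young minus aged and between -0.19 and 0.22 for CASIN minus aged differences.

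The promoters of 65 of the 86 genes (77 promoters, RefSeq, GRCm38.p6) were examined over 250 bases before and 50 bases after the start. The pyrimidine tract at the start, a C followed by 4 letters that are each C or T and beginning within 5 bases of the annotated start on the strand of the gene, was found in 32 of 77 promoters (41.6%), compared to 18.3% of all 32851 promoters. CCGGAAG, the core bound by ETS factors such as GABP, was found on either strand in 27 (35.1%), compared to 8.86% of all. AAGATGGC, the core of YY1 sites, was in 8 (10.4%) against 2.75%. TATAAA was in 7 (9.09%) against 13.6% and CACGTG in 8 (10.4%) against 7.15%. The last 3 letters of CCGGAAG are the first of AAGATGGC, so matches to these can overlap, and a match is a description of the sequence, not of a bound site. The 30 genes with the tract were detected in a median of 7 libraries and the 35 without it in a median of 8. The following stretches run from 40 bases before to 20 bases after the start (first base at position 41), with the tract in capitals. They are shown because they contrast Rps27 with Rps27rt, which share a coding sequence but lie in different places, and give the tract for 3 genes named above.
Rps27 (chr3:90213629-90213688, minus strand): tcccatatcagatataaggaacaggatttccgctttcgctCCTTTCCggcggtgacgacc
Rps27rt (chr9:114982720-114982779, minus strand): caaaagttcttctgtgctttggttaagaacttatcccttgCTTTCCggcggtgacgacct
Rpl7a (chr2:26910767-26910826, plus strand): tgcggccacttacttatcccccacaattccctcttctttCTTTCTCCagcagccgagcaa
Rps15a (chr7:118116128-118116187, minus strand): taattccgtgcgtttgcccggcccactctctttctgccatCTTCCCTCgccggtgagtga
Rpl31 (chr1:39367811-39367870, plus strand): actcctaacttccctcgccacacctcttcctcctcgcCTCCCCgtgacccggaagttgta
In the Rps27 and Rps27rt stretches the letters agree from CTTTCC onward. Rpl7a, detected in all aged and all treated libraries, and Rpl31, detected in all aged libraries but 1 of 3 treated ones, both carry the tract. Rpl13 and Rpl36a, which were named in the comparisons, had none within 5 bases of their annotated start.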

How the data were processed

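The 12 samples were assigned to 3 groups by their labels. The authors sequenced paired ends, trimmed at a phred score of 20 (trim galore) and ran TopHat against mm10 RefSeq, followed by Cufflinks. The values deposited by the authors are on the log2 scale, quantile normalized, for 22548 genes, and the step from Cufflinks to these values is not given in the sources used here. The labels do not tie samples to single animals, so p-values measure the spread between these samples, which may in part be technical.

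The values were used as deposited. One linear model with 3 groups was fitted to all genes by limma 3.58.1 (R 4.3.3, empirical Bayes, two-sided, no filter) with Benjamini-Hochberg adjustment over 22548 genes at 0.05. The fit was tested on simulated data. Genes at the lowest value entered with that value, which itself differs between libraries from 0 to 0.67. Positions, coding sequences and copies come from GENCODE M21 (85 genes matched, blastn 2.17.0), and Python 3.11.15, pandas 2.3.3, scipy 1.17.1 and matplotlib 3.10.9 were used.

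Genes were named by rule: the 6 with the smallest unadjusted p in each comparison, those under 0.05 without overlap, the P-stalk, the paralogue pairs, 4 anaemia genes, the 3 highest and 3 lowest means (a choice of genes, not a comparison of levels), and the 2 with the smallest p in each other list. Some of these genes are not reported here or drawn in the figures. The members and lists were chosen with earlier results of these data known. Alternatives were a common lowest value, centring, detection filters, a pseudocount of 0.1 in place of 1, array weights, limma trend, robust eBayes, fits of 2 groups, a detection covariate, the replicate block and each sample left out. A fit of detected values only and one with all values up to the highest first step set equal were chosen after seeing the data.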

Additional observations from a re-analysis of the deposited data

Results flagged for a closer look

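Of 42 groups tested (19 named genes and 2 counts of genes, in young and in aged HSCs), 9 held a library that stood far from the others of its group by Dixon's criterion. Chance gives about 1 in 20 groups, and where all but 1 library of a group are at the lowest value a single detected value meets the criterion readily. In aged HSCs Rps19 (6.18) and Rps26 (1.01) were far higher in replicate 0 than in the other replicates, Rpl32 (0.81) in replicate 2, Rps27 (1.11) in replicate 4, and Rpl34 (0.81) and Rpl22l1 (2.15) in replicate 5. In young HSCs Rpl32 (4.15) was far higher in replicate 5. In the opposite direction, Rps24 (0.67) was far lower in young replicate 2 and Rps19 (0.43) in young replicate 4, each at the lowest value of its library.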

How the results depend on the processing

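For 18 differences of named genes, 433 of 437 alternative values kept their direction and their side of the adjusted threshold. Alternatives that left a gene out or left no difference were not counted. Rps27 was such a case, as its highest value, 3.71, lies below the highest first step of 4.11. With all values up to that step set equal, its young minus aged difference was lost. Among the values counted, Rpl23a was the exception. Over detected values only, its CASIN minus aged difference was 0.50 and its CASIN minus young difference 1.21, opposite in sign to the values reported, since only CASIN replicate 2 remained. Its adjusted p passed the threshold without CASIN replicate 2, as given above. The number of genes with an adjusted p under 0.05 was 0 between young and aged HSCs in all alternatives, and between 0 and 1 for each of the other comparisons with single libraries left out. At an unadjusted p under 0.05 the count of 3 between young and aged HSCs became 5 with centring, 7 with a pseudocount of 0.1, 6 with limma trend and 6 over detected values only, and lay between 1 and 9 with single libraries left out. The count of 4 between treated and aged HSCs became 2 with the number of detected genes as covariate and lay between 2 and 9 with single libraries left out. The count of 4 between treated and young HSCs became 2 with a common lowest value, with genes detected in at least 6 samples, with limma trend, with robust eBayes or with the covariate, 0 over detected values only or with a common first step, and lay between 1 and 8 with single libraries left out. The median young minus aged difference was 1.18 over detected values only, where that of all genes was 0.94. Over all alternatives the median young minus aged difference lay between 0.0046, with a common first step, and 1.18. That of CASIN minus aged values lay between -0.045 and 0.57 (-0.020 with a common lowest value). That of CASIN minus young values lay between -0.38 and 0. The cause of these changes was not tested. Centring moved the median of all genes from -0.017 to 0.44 between young and aged and from -0.038 to 0.31 between treated and aged HSCs. The ribosomal protein genes were 0.34 and 0.19 above it with and without centring. Centring shifts all genes of a library by the same amount, so this gap could not change and is no test of the result. Relative to the median of all genes, the common lowest value gave 0.34 and 0.15.

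Samples of the same replicate number did not visibly deviate together (8 pairs, correlations of -0.033 to 0.058, none over 0.1). Pairs of other numbers had correlations of -0.047 to 0.033. With all of these near 0, the check cannot exclude that the numbers pair samples. With the replicate block the counts at an unadjusted p under 0.05 were 5 between young and aged, 4 between treated and aged and 4 between treated and young HSCs, with 0 adjusted calls.

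The depth is unknown, libraries detected 36 to 80 of the ribosomal protein genes, and a p that missed the threshold does not show equal levels.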
